A study of Mus musculus with 4 samples.

Results

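The 48 genes described here mark postmitotic neurons, cells that have left the cell cycle and are building axons, dendrites and synapses. They were chosen by name from the 55426 rows of the deposited gene table, in which each of the 48 had 1 row, and cover the neuronal cytoskeleton, adhesion, vesicle release, transmitter use, secretion and transcription. Expression was measured by sequencing of polyadenylated RNA from mouse retinal organoids at day 6, aggregates of cultured cells led towards retina in medium with 5% KSR and AGN at 0.1 µM. All 4 libraries came from 1 line, labelled as a Mettl3 knockout with the Rx:GFP reporter and a Dox-inducible HA-METTL3. METTL3 is the enzyme that adds N6-methyladenosine to RNA. Of these, 2 libraries had no Dox (doxycycline) and 2 had Dox at 2 µg/ml for 6 days, so the comparison asks which neuron genes differ when the inducible copy is meant to be on. The titles also read EV, a term the labels do not explain, and nothing says that replicates came from separate cultures, so p-values measure the spread between these libraries, which may be technical.

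Neurons arise when a dividing progenitor raises proneural transcription factors, leaves the cell cycle and switches on a shared set of genes for microtubules, neurofilaments and vesicle release. In the retina the first neurons to form are ganglion cells, which use Pou4f2, Isl1 and the Ebf and Onecut factors. Pou4f1 is also known from sensory ganglia and dorsal brain neurons. REST represses many neuron genes outside neurons, and stem and progenitor cells also carry low levels of several of them, so no single member defines a neuron.

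Low values moved in steps of 1 fragment, and from these steps the libraries were estimated to hold 31860000 to 34700000 fragments. The Mettl3 row stood at 40.33 and 37.98 FPKM (fragments normalised for transcript length and library depth) without Dox and at 45.2 and 46.37 with it. That row does not separate the knocked-out locus from the inducible copy and checks no label. The eGFP reporter row was at 0.26 and 0.42 FPKM without Dox and at 333.52 and 361.13 with it. Of the labelled retinal identity, the summed level of 4 retinal progenitor markers (Rax, Six3, Six6 and Lhx2) was 32.2 to 35.5 FPKM without Dox and 640.5 to 753.0 with it. Six6 lay at 0.01 FPKM in both untreated libraries, so organoids without Dox carried the retinal label with this marker near 0.

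With Dox, 6 of 7 tested microtubule and growth cone genes and 3 of 3 tested intermediate filament genes fell, and 2 of 3 tested adhesion genes rose. The 4 tested transcription factors also fell, but of these only Pou4f1 averaged 1 FPKM or more in both groups. Nhlh1, Nhlh2 and Ebf3 did so only without Dox, where they were high. Of the 48 members, 24 averaged 1 FPKM or more across all libraries and were tested with all other such genes. In limma, 15 of these 24 fell with Dox and 3 rose at an adjusted p under 0.05, beside 4.87% of all 13931 tested genes called lower and 4.44% called higher. The median log2 fold change of the 24 was -0.98, beside -0.0042 over all tested genes. Because 4 of the 24 reached 1 FPKM only without Dox and 1 only with it, these 5 entered through the group where they were high. Among the 19 with both group means at 1 FPKM or more, 12 fell and 2 rose. Fold changes in the text are on the log2(FPKM + 1) scale unless given as a fold of means, and 2 libraries against 2 allow no exact two-sided permutation p below 0.333 for a single gene. In bulk organoids, fewer neurons and less RNA per neuron cannot be told apart.

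Among the tested members the steepest falls in fold of means were those of the Nhlh1 and Nhlh2 pair and of Pou4f1, so the stretch before their transcription starts is shown, from RefSeq on GRCm38.p6 (mm10 is the build named in the submitters' processing notes). Each is written 5′ to 3′ on the gene's strand and ends before the first annotated transcribed base. Capitals mark the E-boxes CAGATG (or CATCTG on the other strand) and CAGCTG, 6-letter motifs that proneural and other helix-loop-helix factors can bind.
Nhlh1, chr1:172057597-172057846, minus strand: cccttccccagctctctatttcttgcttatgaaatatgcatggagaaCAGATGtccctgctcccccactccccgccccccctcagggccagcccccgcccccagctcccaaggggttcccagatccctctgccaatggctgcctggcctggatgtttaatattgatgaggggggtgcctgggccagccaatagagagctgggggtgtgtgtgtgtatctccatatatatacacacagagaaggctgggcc
Nhlh2, chr3:102009895-102010075, plus strand: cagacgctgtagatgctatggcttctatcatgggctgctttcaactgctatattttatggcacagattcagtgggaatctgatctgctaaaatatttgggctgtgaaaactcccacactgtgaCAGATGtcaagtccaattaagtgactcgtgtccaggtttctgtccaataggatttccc
Pou4f1, chr14:104468000-104468249, minus strand: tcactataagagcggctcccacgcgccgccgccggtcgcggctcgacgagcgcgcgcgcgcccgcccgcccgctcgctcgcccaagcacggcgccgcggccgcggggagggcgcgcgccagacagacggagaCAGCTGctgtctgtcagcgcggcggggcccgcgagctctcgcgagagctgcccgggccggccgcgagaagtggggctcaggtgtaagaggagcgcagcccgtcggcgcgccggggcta
Counted from the RefSeq start, the CAGATG of Nhlh1 begins 203 bases before it and that of Nhlh2 127 bases before it, and the CAGCTG of Pou4f1 begins 118 bases before it. RefSeq windows were found for 35 of the 48 members, 48 windows in all because some genes have several starts. Members without a window included Gap43, Stmn2, Stmn4, Nefl and Nefm, all called lower, so the shares below do not cover them. Within 250 bases before the start, CAGATG on either strand was in 12 of the 48 member windows (25.0%) and in 14.4% of all 32851 windows. Those 12 windows belong to 9 genes. CAGCTG was in 7 of the 48 (14.6%) and in 13.0% of all windows. The letters CAGCACC, from the first part of the long element that REST binds, were in 3 of the 48 (6.2%) and in 5.7% of all windows. GGACAG, from the second part of that element, was in 14 of the 48 (29.2%, from 13 genes) and in 18.7% of all windows. These are matches of letters, not binding sites.

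Among the 13 transcription factors, 4 were tested and fell, beside 4.87% of all tested genes called lower. Of the 4, Nhlh1, Nhlh2 and Ebf3 averaged 1 FPKM or more only without Dox. They passed the filter through the group where they were high. Pou4f1 lay above 1 FPKM in both groups. In the fit without the filter Nhlh1, Nhlh2 and Pou4f1 were also called lower. Nhlh1, a helix-loop-helix factor of newly born neurons, read 3.22 and 3.59 FPKM without Dox and 0.10 and 0.14 with it. Its mean went from 3.41 ± 0.262 to 0.12 ± 0.0283 FPKM (SD, n = 2 each), 28.4-fold lower (log2 fold change -1.98 with SE 0.133, adjusted p = 8.54e-04 by limma). Nhlh2, its close relative, read 2.42 and 2.71 FPKM without Dox and again 0.10 and 0.14 with it, 21.4-fold lower in the means (log2 fold change -1.67, adjusted p = 0.00162). The paired genes thus stood at nearly the same level in both groups, with wide gaps between the groups. Their Dox values rest on few fragments, about 7 and 10 for Nhlh1 and 12 and 17 for Nhlh2 by the longest annotated transcript.

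Pou4f1 (Brn3a), a POU factor of sensory and dorsal neurons, was at 9.64 and 9.27 FPKM without Dox and at 1.30 and 1.06 with it. This was 8.01-fold lower in the means (log2 fold change -2.26 with SE 0.115, adjusted p = 3.36e-04 by limma), the lowest among the 24 tested members on that scale. Ebf3, an early B-cell factor of young neurons, read 1.98 and 2.01 FPKM without Dox and 0.63 and 0.95 with it (log2 fold change -0.75, adjusted p = 0.0369). The Ebf3 call was lost without untreated replicate 1 (adjusted p = 0.120), without untreated replicate 2 (0.135), without Dox replicate 1 (0.120) and without Dox replicate 2 (0.0697).

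The other 9 factors had means under 1 FPKM and were not tested in that fit. Ebf2 read 1.01 and 1.09 FPKM without Dox and 0.22 and 0.20 with it, 5.00-fold lower in the means, and passed when the filter on low values was dropped (adjusted p = 0.0321 in limma). Ebf1 was listed at 0.71 and 0.67 against 0.13 and 0.29 FPKM, and did not pass there (adjusted p = 0.113). Together the 3 Ebf genes each had both Dox libraries below both untreated ones. Of genes with any value above 0, 21.8% had that order. The same order held for Onecut1 (0.67 and 0.74 against 0.10 and 0.20 FPKM), Onecut2 (0.50 and 0.61 against 0.14 and 0.17), Myt1 (1.12 and 1.40 against 0.45 and 0.85) and Tbr1 (0.46 and 0.20 against 0.11 and 0.16). None of these 4 passed without the filter, with adjusted p-values of 0.0588, 0.0693, 0.304 and 0.449.

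Isl1 and Pou4f2, early ganglion cell factors in the retina, did not follow this order. Isl1, a LIM factor, was listed at 0.85 and 0.90 FPKM without Dox and at 0.88 and 1.07 with it, with overlapping groups. Pou4f2 (Brn3b) lay between 0.01 and 0.05 FPKM in the 4 libraries, about 1 to 5 fragments each. The zinc finger gene Myt1l was also low, at 0.11 and 0.03 against 0.05 and 0.02 FPKM. No difference in Pou4f2 or Myt1l was detectable at this depth. Atoh7, the factor that makes retinal progenitors competent to form ganglion cells, read 0.77 and 0.94 FPKM without Dox and 0.18 in both Dox libraries.

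**Figure D1:**
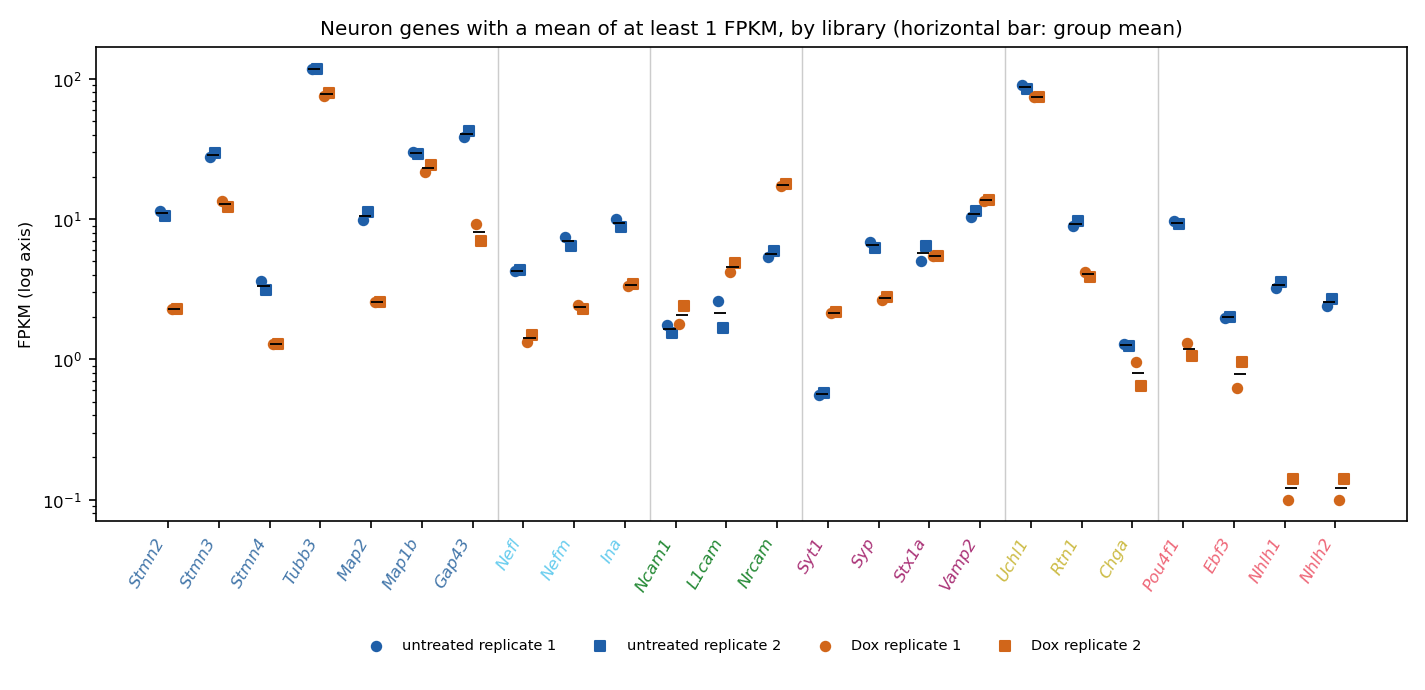
FPKM on a log axis of the 24 neuron genes that averaged 1 FPKM or more. Circles and squares are replicates 1 and 2, blue without Dox and orange with it, black bars are group means, and gene names are coloured and divided by role. Nhlh1 and Nhlh2 drop to 0.10 and 0.14 FPKM with Dox, while Nrcam, L1cam and Syt1 lie higher with Dox than without it.

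Genes of microtubules and the growth cone moved one way. All 9 had both Dox libraries below both untreated ones, an order held by 21.8% of all 27532 genes with any value above 0. Of the 7 tested, 6 fell, beside 4.87% of all tested genes called lower. The summed level of the 9 was 241.5 and 244.4 FPKM without Dox and 126.8 and 130.0 with it.

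Gap43, a membrane protein of growing axon tips, read 38.66 and 42.18 FPKM without Dox and 9.28 and 6.94 with it. Its mean fell 4.98-fold (log2 fold change -2.20 with SE 0.138, adjusted p = 6.88e-04 by limma). Stmn2, a stathmin that destabilises microtubules in growing axons, read 11.47 and 10.55 FPKM without Dox and 2.27 and 2.29 with it, 4.83-fold lower in the means (adjusted p = 4.14e-04). Both genes therefore lost about the same factor from different starting levels.

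The other 2 neuronal stathmins fell less in their means. Stmn3 read 27.74 and 29.47 FPKM without Dox and 13.49 and 12.27 with it, 2.22-fold lower (log2 fold change -1.09, adjusted p = 0.00129 in limma). Stmn4 read 3.60 and 3.12 FPKM without Dox and 1.28 in both Dox libraries, 2.63-fold lower (log2 fold change -0.93, adjusted p = 0.00968). The Stmn4 call was lost without the filter (adjusted p = 0.0650), without untreated replicate 1 (0.0553), without Dox replicate 1 (0.0654) and without Dox replicate 2 (0.0710). Whether the stathmins differed from each other in their response was not tested.

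The microtubule-associated proteins ranged from a steep fall to no call. Map2, the dendritic one, read 9.86 and 11.33 FPKM without Dox and 2.55 and 2.57 with it, 4.14-fold lower (log2 fold change -1.70, adjusted p = 7.35e-04 in limma). Dcx, which binds microtubules in migrating young neurons, read 1.19 and 1.25 FPKM without Dox and 0.13 and 0.11 with it, 10.2-fold lower. Its mean over the 4 libraries lay under 1 FPKM, and it passed in the fit without the filter (adjusted p = 0.0220).
By contrast, Map1b, found in growing axons, read 30.11 and 29.38 against 21.85 and 24.49 FPKM and did not pass (log2 fold change -0.35, adjusted p = 0.0631), although with median centring it did (adjusted p = 0.0455). Mapt, which encodes tau, was low throughout, at 0.36 and 0.31 against 0.22 and 0.19 FPKM. Tubb3, the neuronal beta-tubulin often stained to show neurons, was the most abundant member at 118.53 and 116.78 FPKM without Dox and 75.76 and 79.83 with it. It fell 1.51-fold (log2 fold change -0.59, SE 0.0645, adjusted p = 0.00461), and without untreated replicate 1 its adjusted p was 0.0555.

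Of the 5 intermediate filament genes, 3 were tested and fell, beside 4.87% of all tested genes called lower. Nefl, the light neurofilament chain, read 4.24 and 4.36 FPKM without Dox and 1.34 and 1.49 with it, 3.04-fold lower (adjusted p = 0.00349 in limma). Nefm, the medium chain, read 7.50 and 6.44 against 2.43 and 2.30 FPKM, 2.95-fold lower (adjusted p = 0.00277). Ina, alpha-internexin, read 10.02 and 8.81 against 3.33 and 3.47 FPKM, 2.77-fold lower (adjusted p = 0.00204).
The heavy chain Nefh was under the filter, at 0.71 and 0.57 against 0.54 and 0.41 FPKM, 1.35-fold lower in the means, and did not pass without the filter (adjusted p = 0.496). Prph, the filament of peripheral neurons, was at 0.18 and 0.32 against 0.22 and 0.33 FPKM, with overlapping groups. Nefl and Nefm overlap at their ends on opposite strands in GENCODE M21, so their values are uncertain if counting ignored strand. That holds for the called members Map2, Ina, Syp and Ebf3 too, whose exons overlap another gene on the opposite strand. Exons of L1cam overlap another gene on the same strand.

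Of the 5 adhesion molecules, 3 were tested, none fell in limma (0 also at an unadjusted p under 0.05) and 2 rose. Over all tested genes, 4.87% were called lower and 4.44% higher. Nrcam, an L1-family adhesion molecule of axons, read 5.38 and 5.88 FPKM without Dox and 17.24 and 17.83 with it. Its mean was 3.12-fold higher (log2 fold change 1.48 with SE 0.0895, adjusted p = 6.10e-04 by limma), and the call held in all 14 other settings tried. L1cam, of the same family, read 2.59 and 1.68 FPKM without Dox and 4.22 and 4.88 with it, 2.13-fold higher (log2 fold change 0.84, adjusted p = 0.0435).
The L1cam call was fragile. It was lost with a pseudocount of 0.1 (adjusted p = 0.0502), without the filter (0.172), without untreated replicate 2 (0.142), without Dox replicate 1 (0.142) and without Dox replicate 2 (0.215). Ncam1 read 1.75 and 1.53 against 1.78 and 2.39 FPKM and did not pass (adjusted p = 0.452). Cntn2 (TAG-1), which marks early axons, read 0.48 and 0.46 against 0.20 and 0.23 FPKM, below the filter. Chl1 stood at 0.01 FPKM in each untreated library and at 0 in both Dox libraries, about 2 and 3 fragments against none.

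Genes of vesicle release had no shared direction. Their summed level was 24.4 and 26.0 FPKM without Dox and 24.4 and 24.9 with it. Syt1, the calcium sensor of fast release, rose from 0.56 and 0.58 FPKM to 2.13 and 2.17, 3.77-fold higher (log2 fold change 1.01, SE 0.127, adjusted p = 0.00778 in limma). It lost the call without Dox replicate 1 (adjusted p = 0.0516) and without Dox replicate 2 (0.0567), and it reached 1 FPKM only with Dox.
Syp, synaptophysin of the vesicle membrane, went the other way, from 6.89 and 6.27 FPKM to 2.67 and 2.79, 2.41-fold lower (log2 fold change -1.02, adjusted p = 0.00394). The vesicle fusion genes Vamp2 and Stx1a were not called. Vamp2 read 10.39 and 11.52 against 13.47 and 13.74 FPKM (unadjusted p = 0.0193 and adjusted p = 0.120 in limma). Stx1a read 5.02 and 6.42 against 5.50 and 5.46 FPKM, with overlapping groups (adjusted p = 0.874). The other 3 were low: Snap25 at 0.43 and 0.39 against 0.24 and 0.21 FPKM, Syn1 at 0.89 and 0.65 against 0.38 and 0.50, and Syt4 at 0.24 and 0.13 against 0.01 and 0.05. Each of them had both Dox libraries below both untreated ones, and none passed without the filter. That order was held by 21.8% of genes with any value above 0.

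Genes for transmitter synthesis and loading were barely detected, and none of the 4 reached the filter. Slc17a6, the vesicular glutamate transporter VGLUT2, was the highest at 0.25 and 0.31 FPKM without Dox and 0.06 and 0.10 with it. Gad1, which makes GABA, read 0.28 and 0.10 against 0.04 and 0.05 FPKM. Gad2 was at 0.01 and 0 against 0.13 and 0.02 FPKM, and Slc32a1, the vesicular GABA transporter, at 0 in both untreated libraries and 0.02 and 0.01 with Dox. All 4 had adjusted p-values of 0.111 or more without the filter.

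The remaining 5 members are proteins of the cell body, secretory granules and matrix. Rtn1, a reticulon of the endoplasmic reticulum, read 8.94 and 9.66 FPKM without Dox and 4.19 and 3.87 with it, 2.31-fold lower (log2 fold change -1.03, adjusted p = 0.00307 in limma). Uchl1, a deubiquitinase abundant in neurons, was the second most abundant member at 89.94 and 84.41 against 73.75 and 74.34 FPKM and did not pass (log2 fold change -0.23, adjusted p = 0.102). Its exons overlap an antisense gene.
Of the granins, Chga read 1.28 and 1.24 against 0.95 and 0.65 FPKM (adjusted p = 0.256), and Scg2 0.40 and 0.39 against 0.42 and 0.41. Reln, a matrix protein secreted by Cajal-Retzius and some other neurons, read 0.35 and 0.41 FPKM without Dox and 1.13 and 0.89 with it, 2.66-fold higher in the means. It lay under the filter and did not pass without it (adjusted p = 0.108).

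**Figure D2:**
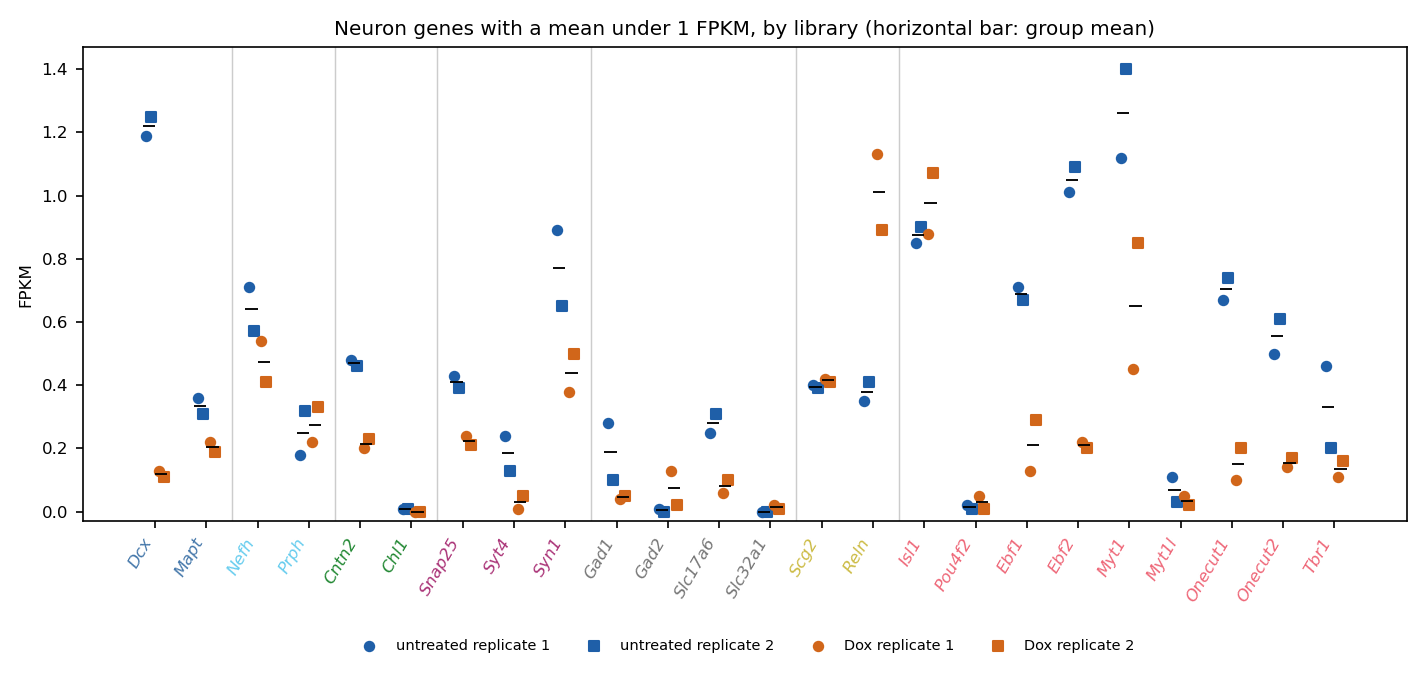
FPKM of the 24 neuron genes with a mean under 1 FPKM, on a linear axis with the same symbols as the plot of tested members. Dcx, Ebf2, Onecut1 and Onecut2 lie lower with Dox, Reln lies higher, and Isl1 and Scg2 stay near the same level.

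Without the filter all 48 members entered the test, with 15 called lower and 2 called higher, beside 1.49% and 1.22% of the 27532 genes tested. Dcx and Ebf2 came in, and Stmn4, Ebf3 and L1cam dropped out. Over all 48, 34 had both Dox libraries below both untreated ones and 9 had both above. Among genes with any value above 0, 21.8% had the first order and 20.4% the second. The summed FPKM of the 48 was 423.0 and 420.1 without Dox and 267.5 and 273.8 with it, and Tubb3 and Uchl1 carried much of it.

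**Figure D3:**
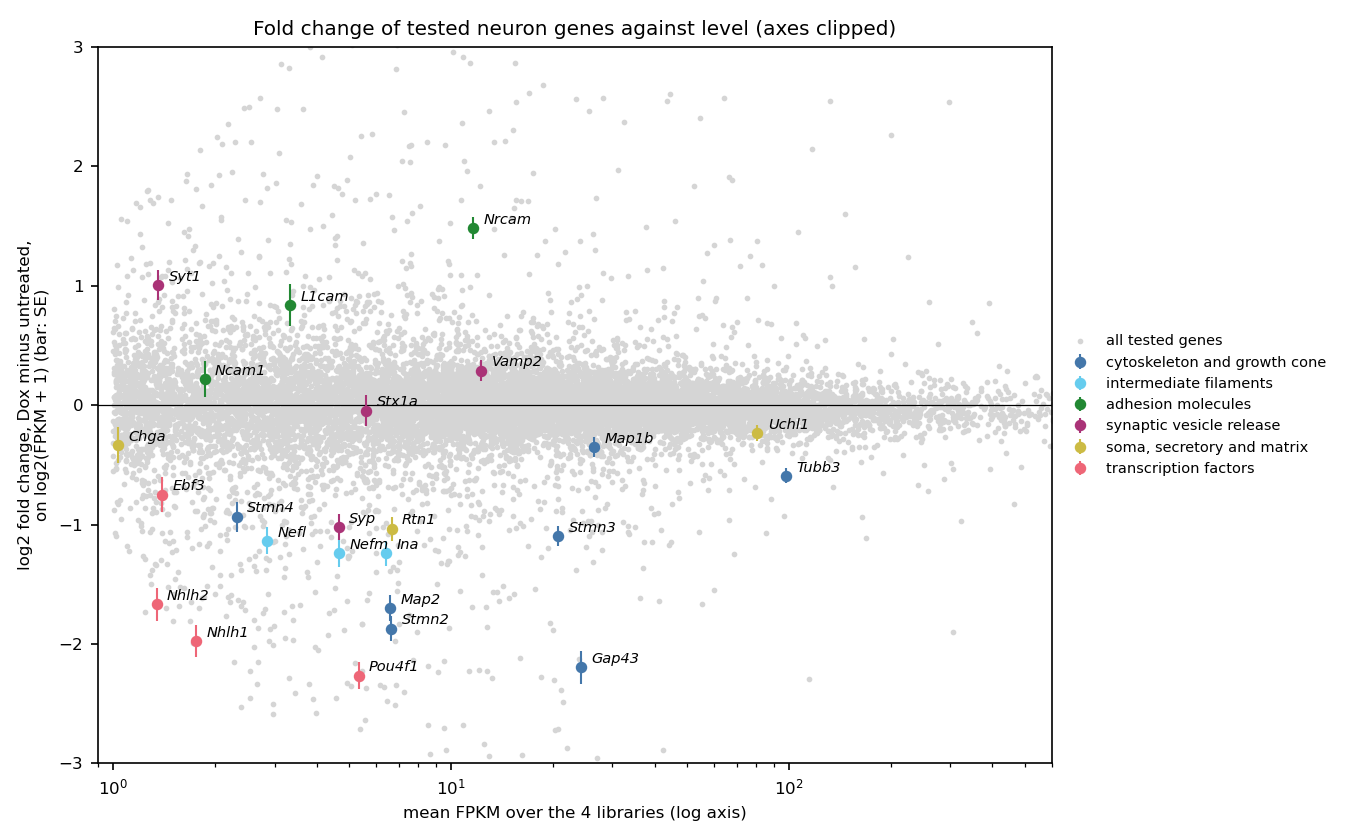
Log2 fold change (Dox minus untreated, on log2(FPKM + 1)) against mean FPKM on a log axis, with the 24 tested members coloured by role, bars for their SE, and all 13931 tested genes in grey where they lie inside the axes. Pou4f1, Gap43 and Nhlh1 lie lowest and Nrcam highest, and the abundant Tubb3 and Uchl1 lie nearer 0.

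Transcription factors linked to neuron commitment were compared from a separate list. Of 17 neuron commitment factors, 6 were tested, 4 fell and 1 rose, beside 4.87% and 4.44% of all tested genes. Of the 4, Neurog1, Neurog2 and Neurod1 reached 1 FPKM only without Dox, and Lhx5 lay above it in both groups. In 14 of the 17 both Dox libraries were below both untreated ones, an order held by 21.8% of genes with any value above 0. Neurog2, a proneural factor, read 5.40 and 4.64 FPKM without Dox and 0.30 and 0.40 with it. Lhx5, a LIM factor of the developing forebrain, read 37.46 and 34.81 against 6.49 and 5.76 FPKM. Insm1, a zinc finger factor of neuron progenitors, ran against the list and rose from 4.88 and 5.37 FPKM to 7.94 and 10.75 (log2 fold change 0.74, adjusted p = 0.0419 in limma). The Insm1 call was lost in limma without the filter (adjusted p = 0.162) and without the intensity trend of the fit (0.0519). It was also lost without untreated replicate 1, untreated replicate 2 or Dox replicate 2 (log2 fold change 0.69, 0.80 and 0.55).

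Most genes of a broader neuronal cytoskeleton list did not pass the threshold. In that list of 20 other neuronal cytoskeleton and growth genes, 18 were tested. Of these, 4 fell and 1 rose, beside 4.87% and 4.44% of all tested genes, and the median log2 fold change was -0.022. The 4 were the RNA-binding Elavl3 (1.92 ± 0.304 to 0.285 ± 0.0495 FPKM, SD, n = 2 each), Elavl4, the vesicle protein Nsg2 and the growth cone protein Dpysl5, and of these both Elavl genes reached 1 FPKM only without Dox. Abundant growth genes stood at similar levels, such as Basp1 at 188.77 and 173.92 against 188.59 and 203.83 FPKM (adjusted p = 0.457). Nsg1 rose from 24.17 and 26.66 to 36.63 and 36.03 FPKM (adjusted p = 0.0158). The calls of Nsg1 and Dpysl5 were lost without the filter (adjusted p = 0.0656 and 0.0998 in limma). That of Dpysl5 was also lost with values rescaled to a common sum (adjusted p = 0.085 in limma). Both were lost with any 1 library left out (log2 fold change 0.43 to 0.57 for Nsg1, -0.57 to -0.39 for Dpysl5). The Elavl3 call was lost without Dox replicate 1 or Dox replicate 2 (log2 fold change -1.14 and -1.22). Of 21 other synapse and transmitter genes, 7 were tested and 1, Dnm1, fell, beside 4.87% of all tested genes. Dnm1 was not called without the filter (adjusted p = 0.0826 in limma) or with values rescaled to a common sum (0.0518). Its call was also lost with any 1 library left out (log2 fold change -0.65 to -0.59).

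Repressors of neuron genes were taken from a list of REST, 6 of its partners and the splicing repressor Ptbp1. Of these 8, 0 were called in limma, beside 4.87% of all tested genes called lower and 4.44% called higher. At an unadjusted p under 0.05, 3 were higher and 0 lower, and the median log2 fold change of the 8 was 0.084. Rest itself read 8.40 and 8.05 FPKM without Dox and 9.61 and 11.94 with it (adjusted p = 0.163). Of 8 cycling cell markers 0 were called, also 0 at an unadjusted p under 0.05 in limma. For 8 genes, 0 called is near those shares. The summed levels of the cycling markers were 1327 and 1347 FPKM without Dox and 1349 and 1286 with it.

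Some markers of neural crest, glia and Cajal-Retzius neurons were also lower with Dox. The counts of these lists stand beside 4.87% of all tested genes called lower and 4.44% called higher. In the neural crest and peripheral neuron list, which holds the member Prph, the 3 tested genes (Sox10, Foxd3 and Ngfr) fell, each having reached 1 FPKM only without Dox, and the summed level of its 8 genes was 22.7 to 23.1 FPKM without Dox and 1.58 to 2.32 with it. Sox10, which defines neural crest and its glia, read 12.79 and 13.35 FPKM without Dox and 0.82 and 0.43 with it. Of 8 glial markers, 2 of 3 tested fell, of which Olig2 reached 1 FPKM only without Dox, and the sum was 15.6 to 16.7 FPKM without Dox and 6.55 to 7.49 with it, while the glial genes Gfap and S100b lay between 0 and 0.12 FPKM in all libraries. Of 8 Cajal-Retzius markers, which include the members Reln, Tbr1, Ebf2 and Ebf3, the tested genes Lhx5 and Ebf3 fell, and the sum went from 39.1 to 42.3 FPKM without Dox to 8.31 to 9.11 with it. Most of that sum was Lhx5, which the commitment list also holds. Reln was higher with Dox, as given above, and Trp73 and Calb2 had overlapping groups. Among 11 neural progenitor markers, all tested, 6 fell and 2 rose. The largest log2 fold changes were those of Fabp7 (13.0-fold lower in the means), Sox1 (4.96-fold lower), Hes1 (2.58-fold higher) and Hes5 (2.41-fold lower). The part of these cell types in the neuron gene values was not tested.

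Within the 9 other retinal neuron markers, 1 of 4 tested genes fell and 2 rose, beside 4.87% and 4.44% of all tested genes. Crx was at 1 FPKM or more only with Dox and Tfap2b only without it. Crx, a photoreceptor precursor factor, rose from 0.57 and 0.50 FPKM to 5.22 and 6.09 (adjusted p = 6.43e-04 in limma). Tfap2b fell from 8.84 and 7.96 to 0.85 and 0.59 FPKM (adjusted p = 4.14e-04); it marks amacrine cells and also neural crest. The ganglion cell list of 8 genes, 4 of them members, had 2 of 3 tested genes lower, the members Tubb3 and Pou4f1. Rbpms, the tested gene that is no member, read 18.14 and 15.76 FPKM without Dox and 21.87 and 25.87 with it and did not pass (adjusted p = 0.0697).
No gene of the 7 in the mesoderm and endoderm list reached the filter, and their sum was 1.57 and 1.48 FPKM without Dox and 3.01 and 2.45 with it. Gata4 read 0.01 and 0.02 against 0.32 and 0.26 FPKM and was called higher without the filter (adjusted p = 0.0474), and Hand1 read 0.28 and 0.14 against 1.60 and 0.95 and was not (adjusted p = 0.133). Of 4 pluripotency markers 0 were called in limma, near the shares over all tested genes, with 2 lower at an unadjusted p under 0.05.

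**Figure D4:**
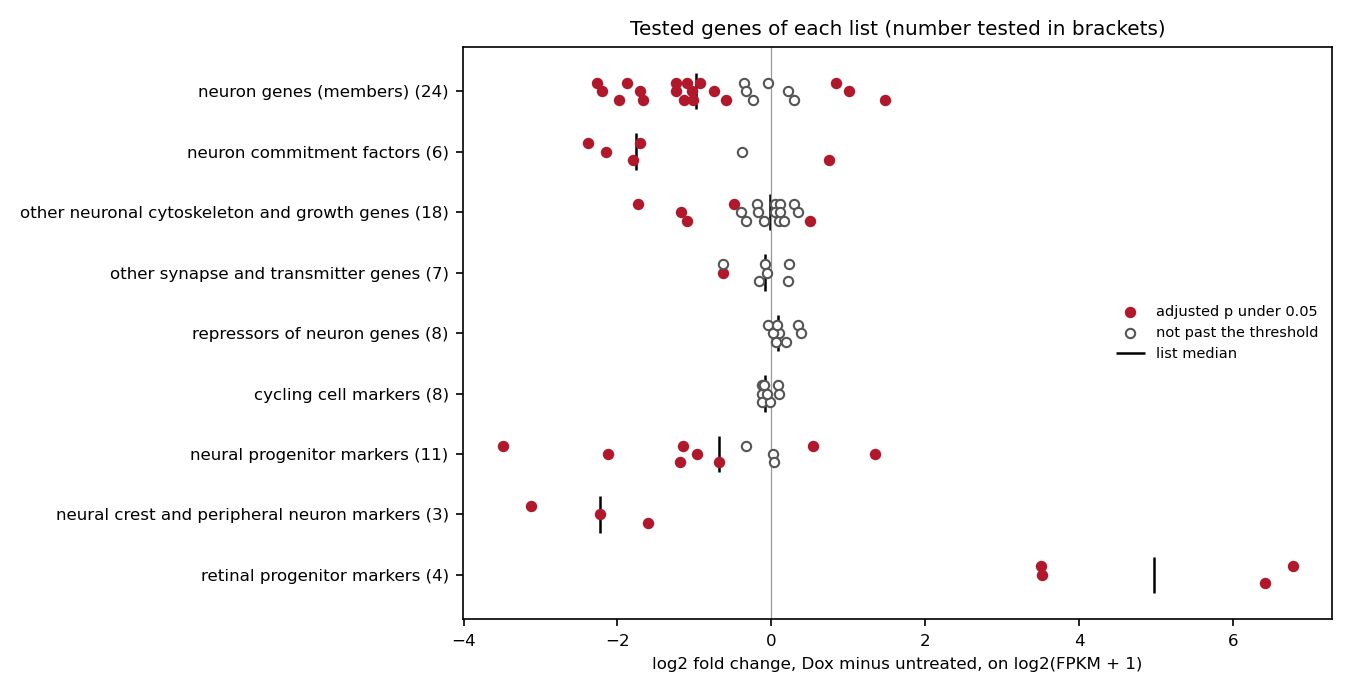
Log2 fold changes of the tested neuron genes and of the tested genes in 8 other lists, with red points past the adjusted p threshold, open points not past it, and black bars for list medians. Neuron genes and commitment factors lie mostly left of 0, cycling markers and repressors of neuron genes lie close to 0, and the 4 retinal progenitor markers lie at 3.50 or more.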

How the data were processed

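The authors deposited gene-level FPKM values, 1 column per library, rounded to 2 decimals. STAR, Cuffdiff and the build mm10 are named in the submitters' processing notes, with no version or role; annotation release and strand setting are not given in the sources used here. Values were transformed to log2(FPKM + 1), and the 13931 genes averaging 1 FPKM or more were tested in limma 3.58.1 (R 4.3.3; lmFit, eBayes with an intensity trend; all 4 libraries, no covariate), two-sided, with Benjamini-Hochberg adjustment over all tested genes and a threshold of 0.05. The members, lists and tests were chosen with earlier results of these data known. Every member is described; other genes were to be named from fixed lists, at most the 4 called genes with the largest change per list. Atoh7, Basp1, Dpysl2, Dpysl5, Insm1, Rest, Ptbp1, Rbpms, Trp73, Calb2, Gata4, Hand1, Gfap and S100b fall outside that rule and were named after their values were seen, and 4 retinal progenitor markers check the tissue label; another gene of that list is not reported here.

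Depth was fitted in Python 3.11.15 from low values (under 0.5 FPKM) of single-transcript genes of 450 to 1200 nt, of which 87.1% to 87.8% came out within 0.15 of a whole fragment, against 30.0% by chance. Fragment numbers of members use the longest GENCODE M21 transcript (GRCm38) and are approximate. The limma fit, not the depth fit, was tested on simulated data. The 14 alternatives cover pseudocount, filter, scaling, variance estimation, the replicate block and each library left out. Exons of 14 of the 48 members overlap a gene on the opposite strand, 6 of them called.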

Additional observations from a re-analysis of the deposited data

How the results depend on the processing

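Over all genes, 1297 were called, against 745 without a filter, 821 with a minimum mean of 5 FPKM, and 593 to 697 with 1 library left out, where the lone library is assumed to vary like the others. Of the 18 called members, 18 kept their call with a pseudocount of 5, TPM rescaling, median centring, quantile normalization, no trend and robust estimation. With a minimum mean of 5 FPKM only 9 of the 18 were tested, and 8 were called lower and 1 higher. With a pseudocount of 0.1, 16 kept the call, losing Ebf3 and L1cam. Without 1 library 14 to 16 did, with 12 to 14 called lower and 1 to 3 higher; the count of 1 arose without Dox replicate 1 or without Dox replicate 2, where L1cam and Syt1 lost their calls.

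The median log2 fold change of tested members, -0.98, was -1.21 with a pseudocount of 0.1, -0.55 with a pseudocount of 5, -0.29 without a filter over all 48, -1.03 with a minimum of 5 FPKM and -0.88 with TPM. With 1 library left out it ranged from -0.998 to -0.91. The median of the vesicle release genes, 0.12, was -0.20 without a filter, and that of the other synapse genes, -0.087, was 0.062 with a minimum of 5 FPKM; both add or drop genes by construction. Stx1a, not called, had a log2 fold change of 0.11 without untreated replicate 2, against -0.045; the cause was not tested.

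Replicate numbers are shared between the groups but nothing says that they pair libraries, and the replicate 1 minus 2 differences correlated at -0.043 over genes. With the replicate block 1134 genes were called, and the members' counts stayed at 15 lower and 3 higher, with 18 of 18 shared. Low members are limited by depth; the Dox values of Nhlh1 rest on about 7 and 10 fragments.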

Other observations

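The members Stmn4, Ebf2, Nefm and Nefl lie within 1.78 Mb of chromosome 14 (GRCm38, 66344296 to 68124846). Each had both Dox libraries below both untreated ones, an order held by 21.8% of genes with any value above 0. Of the 9 other tested genes in that stretch 0 were called in limma, with 3 at an unadjusted p under 0.05, and their log2 fold changes ranged from -0.35 to 0.26. One of them is Dpysl2, itself a growth cone gene, at 12.63 and 10.91 FPKM without Dox and 10.82 and 13.69 with it. The stretch was chosen after the values were seen.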
